A study of Mus musculus with 12 samples.

Results

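The genes described here are 10 that build and crosslink elastic fibers: Eln, Fbn1, Emilin1, Fbln2, Fbln5, Mfap4, Mfap5, Lox, Loxl1 and Loxl2. They were taken by gene name from a table of 53465 genes, and all 10 were among the 16101 genes that passed the filter on low counts. They were selected with their measured values in these 12 libraries in view, and the comparison behind that choice is not recorded, so their differences between groups are given as a description. Calls are counted only beside the share of all tested genes, and nothing is read from them.

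Heart RNA of 12 mice was sequenced, with 4 groups of 3 mice and 1 library per mouse. A17fl/fl mice carry Adam17 alleles flanked by loxP sites, and A17α-MHCKO mice carry the same alleles together with a Cre recombinase driven by the α-MHC promoter, which removes exon 2 in cardiomyocytes only. From 8 weeks of age, mice of both genotypes received intraperitoneal doxorubicin (DOX), an anthracycline, at 5 mg/kg on days 0, 7, 14 and 21, a total of 20 mg/kg, or normal saline (NS). Hearts were taken 4 weeks after the last injection, and the study's comparisons addressed what DOX changed in A17fl/fl hearts and what loss of ADAM17 changed after DOX. A group is named by its genotype and what was injected, as in A17fl/fl + DOX. The RNA came from whole tissue, so fewer cells of a type and less RNA per cell cannot be told apart.

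Elastic fibers give arteries, valves and the heart wall their recoil. Tropoelastin, the product of Eln, is laid down on microfibrils made of fibrillin and microfibril-associated proteins, with fibulins and EMILIN1 at the interface. Copper-dependent lysyl oxidases then oxidise lysines so that neighbouring chains crosslink into insoluble elastin. In the heart and its vessels these genes are known chiefly from fibroblasts, smooth muscle cells and endothelium, cells in which the α-MHC promoter is not known to be active.

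Total counts per library ran from 15950717 to 21725076. Adam17, the targeted gene, was at 27.9 to 36.8 CPM (counts scaled to library size, with TMM factors) in the 6 A17α-MHCKO libraries and at 43.6 to 70.9 CPM in the 6 A17fl/fl libraries, without overlap. One library stood apart: A17fl/fl + NS replicate 1 had a mean correlation of 0.900 with the other 11 libraries, against 0.948 to 0.966 for those. Its neutrophil markers summed to 2118 CPM against 5.03 to 64.4 CPM elsewhere, and its cardiomyocyte markers to 14862 CPM against 23828 to 39371 CPM. For results that rest on it, values without it are also given. The study describes the tissue as left ventricular, and the labels as heart. Atrial markers (Myl7, Myl4, Sln and Bmp10) summed to 1.56, 3072 and 1.75 CPM in A17fl/fl + NS replicates 1, 2 and 3, to 1254 to 2337 CPM in A17α-MHCKO + NS and to 326 to 1206 CPM in the DOX groups. Of these, Myl7 was at 0 in 1 library, Sln in 2 and Bmp10 in 3.

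The coding sequence of Eln shows what the lysyl oxidases act on. The annotated coding sequence of 860 codons (transcript ENSMUST00000015138.12, chromosome 5, GENCODE M21) spells glycine, alanine, valine or proline in 76.9% of its codons, against 22.6% to 35.6% in the other 9 genes. It holds 38 lysine codons, and 17 times 2 lysines stand 3 or 4 codons apart, the spacing of crosslinking domains. The stretch below covers codons 272 to 321 and was chosen, with the composition, after the expression values were seen. Lysine codons are in capitals.

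Eln codons 272 to 321: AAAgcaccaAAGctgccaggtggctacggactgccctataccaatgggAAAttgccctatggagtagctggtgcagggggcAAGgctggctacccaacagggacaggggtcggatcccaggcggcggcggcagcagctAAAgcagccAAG

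Cysteine codons made up 12.6% of Fbn1, 8.76% of Fbln2 and 8.89% of Fbln5, whose products are chains of disulfide-bonded EGF-like modules, and 0.233% of Eln. Transcripts of different members shared almost no sequence: only Lox and Loxl1 had any identical run of 31 bases in common, 2 of them.

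Promoter windows were matched in the RefSeq table (GRCm38.p6) for 4 of the 10 genes, Fbn1, Emilin1, Fbln2 and Fbln5. The 3 windows printed are the 250 bases before the start of Fbn1 and Emilin1, which were highest in A17fl/fl + NS replicate 1, and of Fbln5, which was lowest there. GC boxes (GGGCGG, on either strand) are in capitals.

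Fbn1, chr2:125506439-125506688, minus strand: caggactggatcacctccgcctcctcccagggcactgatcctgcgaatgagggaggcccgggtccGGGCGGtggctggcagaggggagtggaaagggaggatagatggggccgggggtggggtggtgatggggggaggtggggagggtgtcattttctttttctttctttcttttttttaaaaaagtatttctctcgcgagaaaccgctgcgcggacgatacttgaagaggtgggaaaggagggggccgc
Emilin1, chr5:30913536-30913785, plus strand: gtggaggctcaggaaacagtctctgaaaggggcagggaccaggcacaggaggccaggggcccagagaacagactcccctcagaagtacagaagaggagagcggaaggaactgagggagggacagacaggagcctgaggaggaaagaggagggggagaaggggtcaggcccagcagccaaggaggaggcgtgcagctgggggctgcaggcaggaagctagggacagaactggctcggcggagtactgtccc
Fbln5, chr12:101819120-101819369, minus strand: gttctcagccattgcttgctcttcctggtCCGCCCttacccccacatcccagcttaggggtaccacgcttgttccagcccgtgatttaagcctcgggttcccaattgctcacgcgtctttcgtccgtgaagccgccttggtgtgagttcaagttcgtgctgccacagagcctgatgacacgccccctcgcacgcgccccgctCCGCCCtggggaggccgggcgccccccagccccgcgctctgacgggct

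The table holds a second window for Fbln5, which is not printed and has no GC box. A GC box stood in the windows of Fbn1 and Fbln2 and in the printed one of Fbln5, and in 32.7% of all 32851 windows of that length. The TATA box (TATAAA), the AP-1 site (TGANTCA), the HIF site (ACGTG), the TEAD site (CATTCC), the C/EBP site (TTGCNNAA) and the CArG box, searched on both strands, matched none of the windows of these 4 genes. They occur in 12.4%, 6.75%, 16.6%, 12.6%, 9.56% and 1.47% of all windows. The motifs were chosen after the expression values were seen, and a match is a description of letters, not a binding site.

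Per length, Loxl1 was the most abundant of the 10 genes, with a median of 26.7 FPKM over the 12 libraries (fragments scaled to gene length and library size). Fbln2 followed at 18.6 FPKM, Eln at 10.8 and Fbn1 at 10.2. Mfap4 (9.61 FPKM), Loxl2 (8.42), Mfap5 (7.57), Fbln5 (6.76) and Emilin1 (6.35) lay close together. Lox was the least abundant, at a median of 1.82 FPKM. All values from here on are TMM-scaled CPM unless FPKM is named.

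Eln, the elastic core itself, was highest in A17α-MHCKO + NS hearts, at 174, 295 and 341 CPM. The other 9 libraries lay between 51.4 and 129 CPM, so saline-treated knockout hearts stood clear of every other mouse. A17fl/fl + NS hearts had 87.4, 117 and 51.4 CPM, and A17fl/fl + DOX hearts 118, 129 and 90.1 CPM, overlapping ranges. A17α-MHCKO + DOX hearts had 62.0, 61.8 and 73.7 CPM, with the smallest spread of the 4 groups. In order of their means, the groups were at 269.8 ± 86.2 (A17α-MHCKO + NS), 112 ± 20.2 (A17fl/fl + DOX), 85.4 ± 33.1 (A17fl/fl + NS) and 65.8 ± 6.82 CPM (A17α-MHCKO + DOX; SD, n = 3), and only the first did not overlap with its neighbour.

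The fitted log2 fold change of Eln between the genotypes after saline was 1.66 (SE 0.31), a ratio of 3.16. After DOX the sign was opposite, at -0.77 (SE 0.30), and the 3 knockout hearts all lay below the 3 A17fl/fl hearts. Between DOX and saline it was -2.03 (SE 0.31) in A17α-MHCKO and 0.39 (SE 0.30) in A17fl/fl hearts. The interaction term, the DOX difference in A17α-MHCKO minus that in A17fl/fl, was -2.43 (SE 0.43). Eln depended little on the library that stood apart: without it the value for A17fl/fl hearts was 0.41, the genotype difference after saline 1.68 and the interaction -2.45.

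Some marker sums moved with Eln, and others did not or moved against it. Without A17fl/fl + NS replicate 1, log2 Eln and the summed fibroblast markers had r = 0.89 over 11 libraries, and over all 12 libraries r = 0.25. The fibroblast sum was 2004 to 3052 CPM in A17α-MHCKO + NS hearts and 1673 to 1828 CPM in A17α-MHCKO + DOX hearts, with 0 of 8 markers at 0 in any library. For the atrial markers r was 0.63 over 11 and 0.56 over 12 libraries. The mesothelial sum, with r = 0.70 on both sets, was 14.8 to 82.3 CPM in A17α-MHCKO + NS, 3.78 to 22.6 CPM in A17α-MHCKO + DOX, 19.8 to 40.2 CPM in A17fl/fl + DOX and 5.76 to 132 CPM in A17fl/fl + NS hearts. Msln, Upk3b, Upk1b, Lrrn4 and Krt19 were at 0 in some libraries. Vascular smooth muscle markers spanned 471 to 768 CPM in A17α-MHCKO + NS and 437 to 521 CPM in A17α-MHCKO + DOX hearts, with r = 0.39. For adipocyte markers r was 0.55 over 11 and 0.53 over 12 libraries, and for endothelial markers 0.39 and 0.41. It was -0.03 and 0.02 for pericyte, 0.04 and -0.10 for macrophage and -0.30 and -0.24 for neutrophil markers. For cardiomyocyte markers it was -0.55 and -0.20. A17fl/fl + NS replicate 2 had the highest atrial (3072 CPM), mesothelial (132 CPM) and smooth muscle (839 CPM) sums of all 12 libraries, with Eln at 117 CPM. These points share groups and libraries, and the part of these tissues in the level of Eln was not tested.

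**Figure D1:**
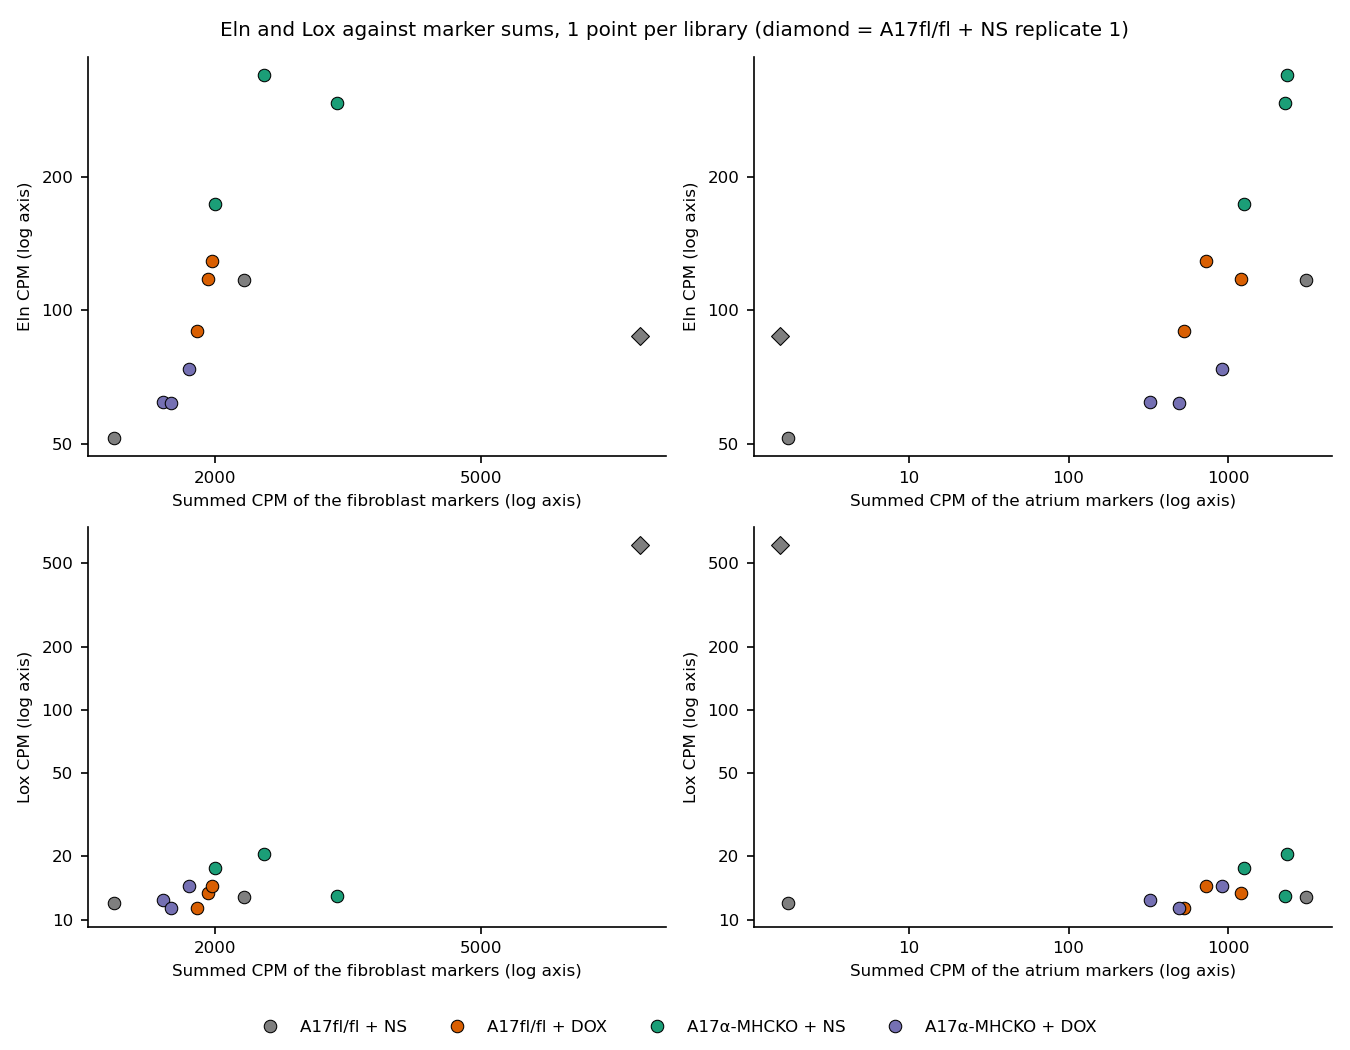
Eln (top) and Lox (bottom) in CPM against the summed CPM of the fibroblast (left) and atrial (right) markers, on log axes, 1 point per library, colored by group. Among the 11 circles Eln is higher where fibroblast markers are higher, while Lox stays between 11.3 and 20.5 CPM; the diamond, A17fl/fl + NS replicate 1, has 8655 CPM of fibroblast markers, 87.4 CPM of Eln and 608 CPM of Lox.

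Among the microfibril genes, Mfap4, whose product binds elastin and fibrillin, had the pattern most like Eln. It was at 35.7, 72.9 and 51.2 CPM in A17α-MHCKO + NS hearts, above the other 9 libraries, which ran from 11.6 to 33.0 CPM. A17fl/fl + NS hearts had 14.1, 32.5 and 21.9 CPM, A17fl/fl + DOX hearts 26.7, 23.4 and 20.3 CPM, and A17α-MHCKO + DOX hearts 11.6, 33.0 and 24.3 CPM. Those 3 groups overlapped, with means of 22.8 to 23.5 CPM against 53.3 ± 18.7 CPM (SD, n = 3) in A17α-MHCKO + NS. The log2 fold change was 1.22 (SE 0.39) between the genotypes after saline and -1.21 (SE 0.39) between DOX and saline in A17α-MHCKO. It was 0.04 in A17fl/fl hearts and -0.03 between the genotypes after DOX. With A17fl/fl + NS replicate 1 left out, the genotype difference after saline was 0.97 and the DOX difference in A17fl/fl hearts -0.22.

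Fbn1, which encodes fibrillin-1, the backbone of microfibrils, was at 312 CPM in A17fl/fl + NS replicate 1 and at 109 and 74.5 CPM in the other 2 mice of that group. The other groups were narrower: 122 to 181 CPM in A17fl/fl + DOX, 148 to 190 in A17α-MHCKO + NS and 83.1 to 170 in A17α-MHCKO + DOX. The groups overlapped, but A17fl/fl + NS overlapped A17fl/fl + DOX and A17α-MHCKO + NS only through replicate 1. The log2 fold change of DOX in A17fl/fl was -0.10 (SE 0.44). Without the library that stood apart it was 0.74 (SE 0.28), and the genotype difference after saline moved from 0.01 to 0.85.

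Mfap5 (MAGP-2), a small microfibril-bound glycoprotein, spanned 24.9 to 61.4 CPM, with both ends in A17fl/fl + NS. Its group means ran from 39.3 to 47.6 CPM, and each neighbour in that order overlapped the next. The fitted differences were small, between -0.12 and 0.22 on the log2 scale in the 4 pairwise comparisons. With the library that stood apart left out, they were 0.36 (SE 0.26) for DOX in A17fl/fl and 0.64 (SE 0.26) between the genotypes after saline.

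Emilin1 encodes a glycoprotein at the border of elastin and microfibril. A17fl/fl + NS replicate 1 held 293 CPM, and the other 11 libraries 44.3 to 73.1 CPM. Its log2 fold change after DOX in A17fl/fl was therefore -1.01 (SE 0.58) with that library and 0.45 (SE 0.22) without it, and that between the genotypes after saline -1.21 and 0.25. In the A17α-MHCKO hearts it was -0.03, with 46.7, 73.1 and 47.0 CPM after saline and 48.0, 63.6 and 52.0 CPM after DOX, largely the same range.

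Fbln5, whose product tethers tropoelastin and LOXL1 to microfibrils, was the gene lowest in A17fl/fl + NS replicate 1, at 35.5 CPM against 43.4 to 76.5 CPM in the others. In A17α-MHCKO hearts it was at 59.3, 76.5 and 70.4 CPM after saline and at 49.3, 43.4 and 58.1 CPM after DOX. Those ranges did not overlap, but the gap between 58.1 and 59.3 CPM was narrow, and the log2 fold change was -0.45 (SE 0.20). In A17fl/fl hearts DOX and saline overlapped, at 54.0 to 62.2 and 35.5 to 63.4 CPM, with a log2 fold change of 0.12 (SE 0.20). Between the genotypes after saline it was 0.40 (SE 0.20), and 0.18 (SE 0.15) without the library that stood apart.

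Fbln2, a fibulin of vessel walls and developing valves, ranked second of the 10 genes per length. It was at 425 CPM in A17fl/fl + NS replicate 1 and at 121 to 216 CPM in the other 11. The log2 fold change of DOX in A17fl/fl was -0.56 (SE 0.30) with that library and -0.06 (SE 0.19) without it. Between the genotypes after saline it was -0.61 and -0.10.

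**Figure D2:**
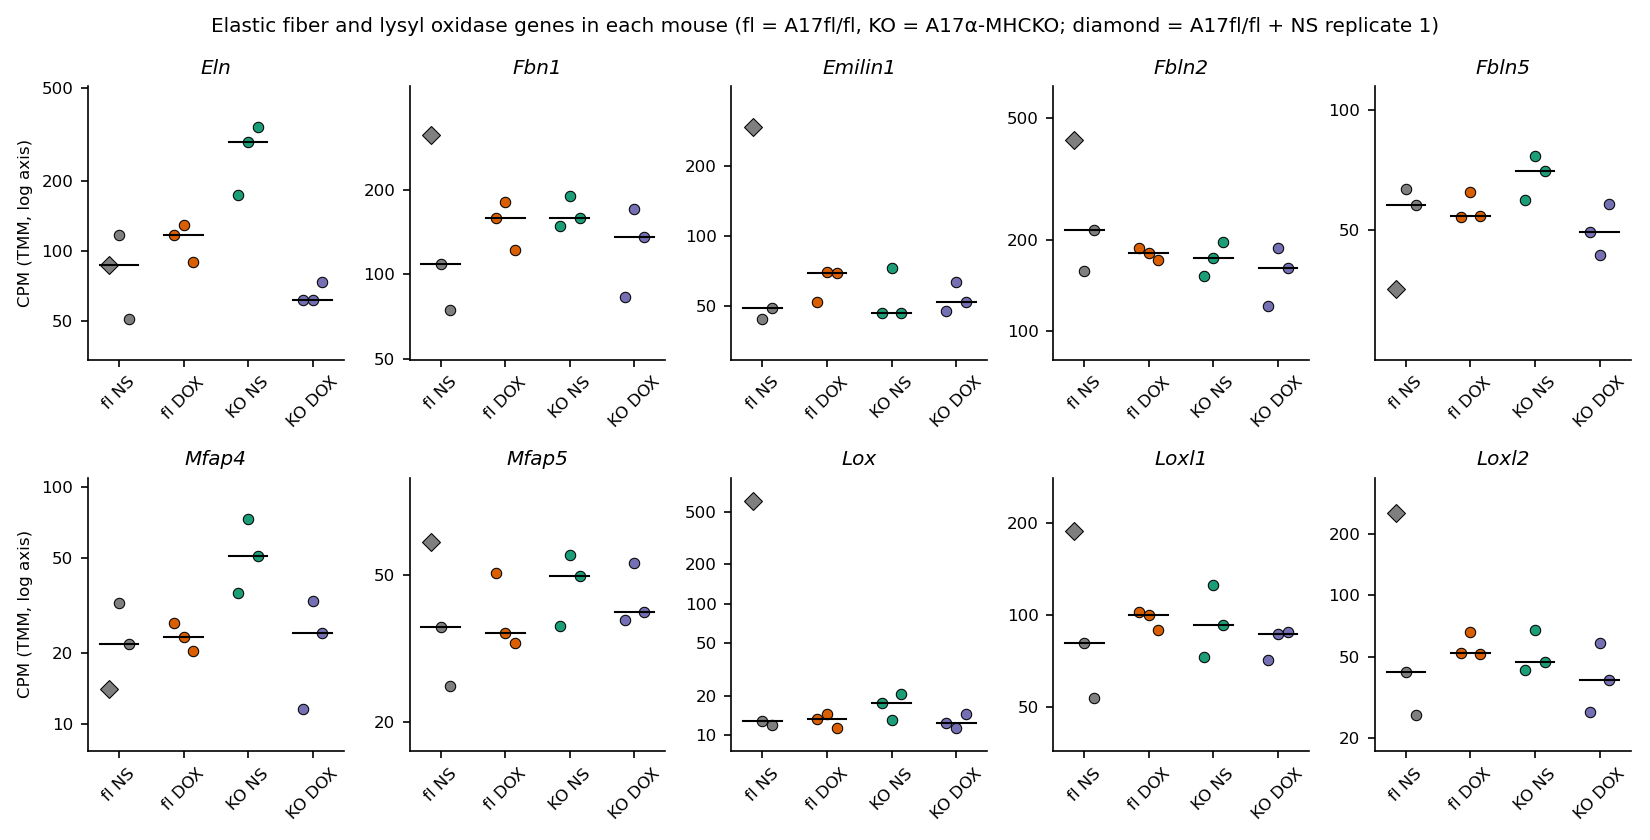
TMM-scaled CPM of each of the 10 genes in the 12 mice, on log axes that differ between panels, with 1 point per mouse, the median of each group as a line and A17fl/fl + NS replicate 1 as a diamond. The 3 A17α-MHCKO + NS points are above all others for Eln and Mfap4, and the diamond is highest for 7 of the 10 genes and lowest for Fbln5.

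Lox, the founding lysyl oxidase, was nearly flat in 11 libraries and very high in 1. A17fl/fl + NS replicate 1 held 608 CPM, or 86.0 FPKM, from 10526 counts. The other 2 mice of its group had 12.9 and 11.97 CPM, A17fl/fl + DOX hearts 13.3, 14.5 and 11.4, A17α-MHCKO + NS hearts 17.5, 13.0 and 20.5, and A17α-MHCKO + DOX hearts 12.4, 11.3 and 14.4 CPM. The single library was 29.6 times the second highest and 46.9 times the median of the other 11. The log2 fold change of DOX in A17fl/fl was -4.01 (SE 1.22) and that between the genotypes after saline -3.63 (SE 1.19). Without that library they were 0.07 (SE 0.20) and 0.45 (SE 0.20), so both values rest on 1 mouse. The interaction went from 3.59 to -0.49 in the same way.

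Loxl2, which also acts on basement membrane collagen, had the same outlying mouse, at 252 CPM against 25.7 to 67.4 CPM in the other 11. Its log2 fold change of DOX in A17fl/fl was -0.92 (SE 0.66) with it and 0.74 (SE 0.32) without it, and between the genotypes after saline -1.02 and 0.63. In A17α-MHCKO hearts, at 42.9, 67.4 and 46.8 CPM after saline and 26.9, 58.2 and 38.3 CPM after DOX, the ranges overlapped.

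Loxl1, the paralog most tied to elastin, was at 188 CPM in that mouse and at 53.5 to 125 CPM elsewhere. After DOX, A17fl/fl hearts had 102, 99.6 and 88.9 CPM and A17α-MHCKO hearts 70.9, 86.2 and 87.6 CPM. These did not overlap, but the gap between 87.6 and 88.9 CPM was narrow, and the log2 fold change was -0.25 (SE 0.37). Between DOX and saline in A17fl/fl it was -0.15 (SE 0.37) with the library that stood apart and 0.53 (SE 0.23) without it, and between the genotypes after saline it was -0.15 and 0.53.

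The same library differed from the others in the mix of the 3 oxidases. Lox made up 45.2% of their summed FPKM there and 3.42% to 7.46% in the other 11 libraries, in which Loxl1 took 70.1% to 77.9%. The ratio of the 3 oxidases to Eln, in FPKM and chosen after the values were seen, was 19.9 in that library. It was 1.76, 1.67 and 1.10 in the A17α-MHCKO + NS hearts and 2.72 to 5.83 in the other 8 libraries. A17α-MHCKO + DOX hearts were at 4.31, 5.83 and 4.57. The summed oxidase FPKM itself was 30.2, 54.2 and 41.5 in A17α-MHCKO + NS hearts and 20.2 to 43.1 in those 8 libraries. The low ratio of the knockout hearts after saline thus restates their high Eln rather than a low oxidase level.

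**Figure D3:**
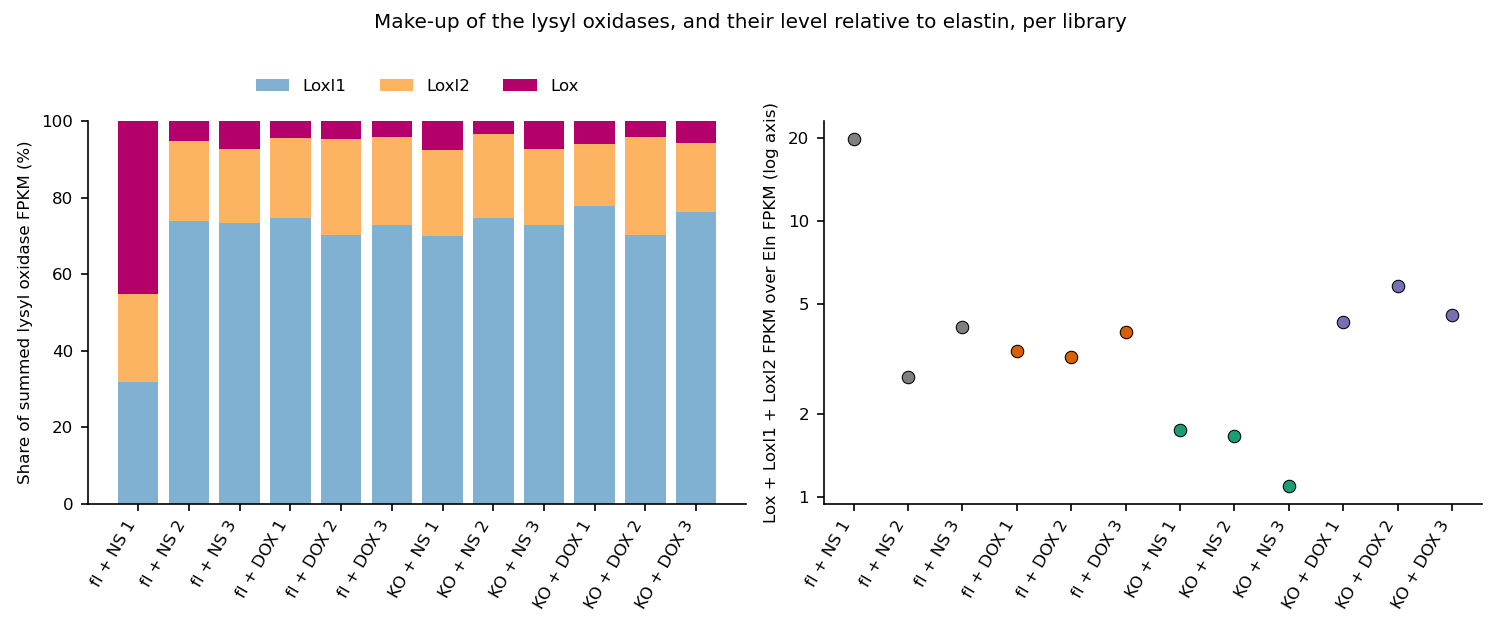
Left, percent of the summed FPKM of Lox, Loxl1 and Loxl2 contributed by each gene in each library, as stacked bars. Right, that summed FPKM divided by the FPKM of Eln, on a log axis, 1 point per library colored by group (fl, A17fl/fl; KO, A17α-MHCKO): 19.9 in A17fl/fl + NS replicate 1, 1.10 to 1.76 in A17α-MHCKO + NS and 2.72 to 5.83 in the rest.

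Other markers also moved in A17fl/fl + NS replicate 1. Its fibroblast sum was 8655 CPM against 1414 to 3052 CPM in the other 11, but only 4 of the 8 markers were highest there. Col1a1 (2262 CPM, 85.0 to 379 elsewhere), Col1a2 (1335 CPM, 135 to 433), Col3a1 (3801 CPM, 110 to 801) and Pdgfra (118 CPM, 58.9 to 84.5) were among these. Tcf21, Lum and Dpt were at their lowest of the 12 libraries in it. All 5 macrophage markers were highest, with a sum of 702 CPM against 278 to 379 CPM, and 5 of 6 cardiomyocyte markers were lowest. The part of these cells in the Lox, Loxl2 and Emilin1 levels of that mouse was not tested.

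Taken over the 10 genes, DOX against saline gave 3 positive log2 fold changes in A17fl/fl hearts with a median of -0.13, where 44.5% of all tested genes were positive with a median of -0.04. In A17α-MHCKO hearts 0 of 10 were positive and the median was -0.35, beside 50.5% and 0.00 over all tested genes. Between the genotypes 5 were positive after saline (median -0.07; all genes 45.5%, -0.03) and 1 after DOX (median -0.21; all genes 51.1%, 0.01). The interaction was positive for 4 (median -0.08; all genes 56.3%, 0.06).

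Without A17fl/fl + NS replicate 1 these counts turned over. DOX against saline was then positive for 7 of 10 in A17fl/fl hearts, with a median of 0.39, and the genotype difference after saline for 9 of 10, with a median of 0.58. The interaction was positive for 0 of 10, with a median of -0.63. The other 2 comparisons do not use that library. When A17fl/fl + NS replicate 3 was left out instead, DOX in A17fl/fl was positive for 3 of 10 (median -0.46). The genotype difference after saline was then positive for 3 (median -0.41) and the interaction for 7 (median 0.21). Replicate 3 was the lowest of the 12 libraries for 5 of the 10 genes, so the turnover depends on which saline control mouse is left out.

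**Figure D4:**
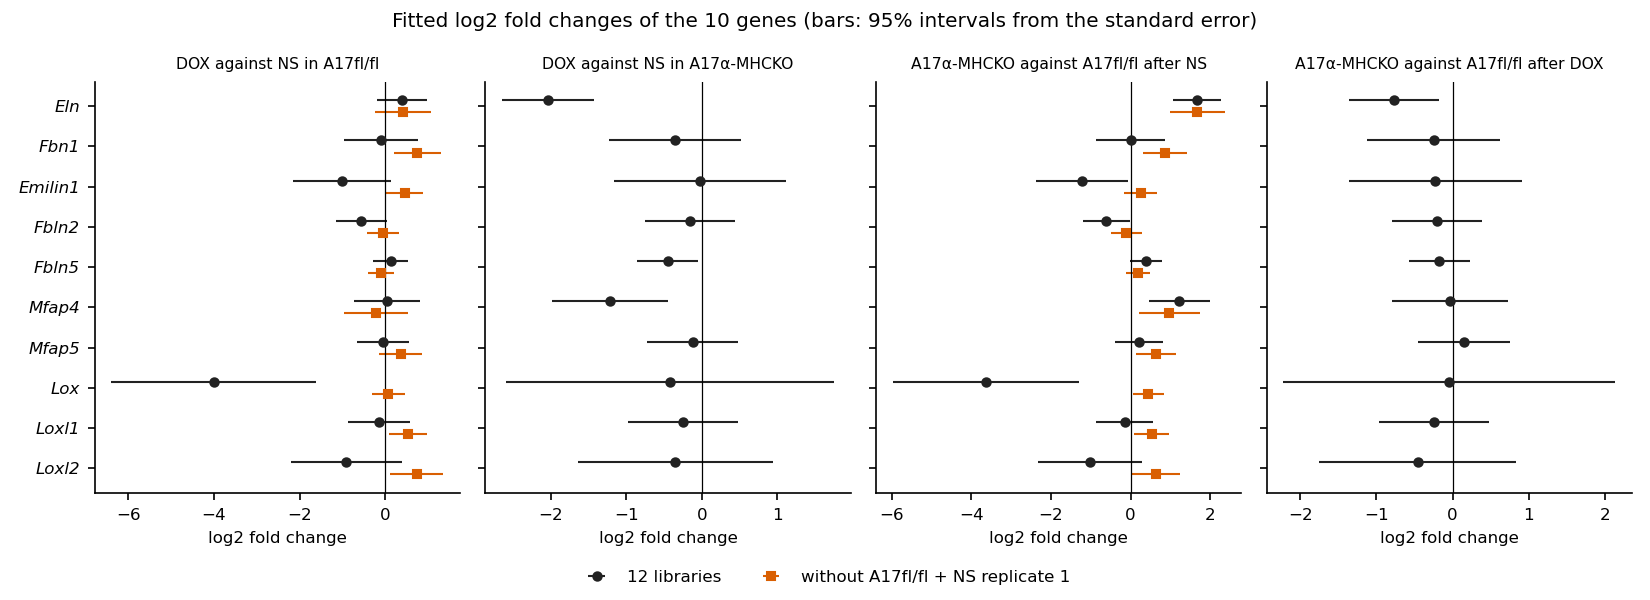
Fitted log2 fold changes of the 10 genes in the 4 pairwise comparisons, with bars of 95% intervals from the standard error, from all 12 libraries (black) and, where the comparison uses it, without A17fl/fl + NS replicate 1 (orange). In A17α-MHCKO hearts all 10 points of DOX against saline are below 0, while Lox moves from -4.01 to 0.07 in A17fl/fl hearts when 1 library is left out.

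At the study's limits (absolute log2 fold change over 1, unadjusted p under 0.05 and mean FPKM over 1 in a compared group), Lox was called for DOX in A17fl/fl, where 2.82% of all tested genes were. Eln and Mfap4 were called for DOX in A17α-MHCKO hearts (0.658% of all genes), Eln, Mfap4 and Lox between the genotypes after saline (2.99%) and in the interaction (2.13%), and 0 of 10 between the genotypes after DOX (0.205%). When A17fl/fl + NS replicate 1 was left out, 0 were called for DOX in A17fl/fl (1.24% of all genes), Eln between the genotypes after saline (1.55%), and Eln, Fbn1 and Loxl2 in the interaction (1.71%), where Mfap4 and Lox were no longer called. When A17fl/fl + NS replicate 3 was left out, the counts were 3 (4.45%), 5 (4.57%) and 2 (3.98%). As the members were selected on measured values, nothing is read from these counts.

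With Benjamini-Hochberg adjustment over all genes, edgeR's quasi-likelihood test called 0 of 10 in each of the 5 contrasts. Of all genes it called 0% for DOX in A17fl/fl, 0% for DOX in A17α-MHCKO, 0.0186% between the genotypes after saline, 0.00621% after DOX and 0% in the interaction. At an unadjusted p under 0.05 the members counted 1, 3, 3, 1 and 3 in that order, where the shares of all genes were 10.7%, 6.42%, 10.1%, 2.7% and 5.99%. DESeq2 called 1 of 10, Eln, at an adjusted p under 0.05 for DOX in A17α-MHCKO (0.255% of all genes), between the genotypes after saline (1.08%) and in the interaction (0.13%), and 0 for DOX in A17fl/fl (0.938%) and between the genotypes after DOX (0.0186%). DESeq2 gave no p-value for Lox or Emilin1, so it could call neither of them. Voom with library weights called 1, again Eln, for DOX in A17α-MHCKO (0.0932%), and 0 of 10 for DOX in A17fl/fl (0%), between the genotypes after saline (0.00621%) and after DOX (0.0186%) and in the interaction (0%). When A17fl/fl + NS replicate 2 was left out, edgeR called Eln and Lox between the genotypes after saline, Lox for DOX in A17fl/fl and Eln in the interaction, and of all genes 4.09%, 2.38% and 0.493%.

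Groups of 3 libraries did not overlap for 0 of 10 genes for DOX in A17fl/fl (13.3% of all tested genes) and for 3, Eln, Mfap4 and Fbln5, for DOX in A17α-MHCKO (16.9%). Between the genotypes they did not overlap for Eln and Mfap4 after saline (10.9%) and for Eln and Loxl1 after DOX (14.1%).

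Across the 12 libraries, the log2 CPM of the 45 pairs of members had a median r of 0.48, from -0.64 to 0.93, with 31 pairs positive. Without A17fl/fl + NS replicate 1 the median was 0.42 and 44 pairs were positive, over 11 libraries. The genes with the pattern most like the mean of the members over 12 libraries were Igfbp7 (r = 0.951), Adamts2 (0.950), a procollagen N-proteinase, Col3a1 (0.945), which is also among the fibroblast markers, Sparc (0.943), Alg2 (0.935) and Gm47302 (0.934). Over 11 libraries Col5a2 (0.963), Gja5 (0.951) and Adamts2 (0.936) were the closest, a list chosen after the values were seen. All these points share libraries, groups and scaling, and no test was made.

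Of 29 other elastic fiber genes in a list written from their known roles, with earlier results of these data known, 28 were tested. DOX against saline was positive for 12 of them in A17fl/fl hearts (median -0.24) and for 6 in A17α-MHCKO hearts (median -0.35). The genotype difference was positive for 15 after saline (median 0.13) and 6 after DOX (median -0.24), and the interaction for 13 (median -0.15). These stand beside the shares of positive genes and the medians over all genes given above for the members. When A17fl/fl + NS replicate 1 was left out, DOX in A17fl/fl was positive for 14 (median 0.0015, all genes 48.8%), the genotype difference after saline for 17 (median 0.11, all genes 49.2%) and the interaction for 5 (median -0.26, all genes 52.2%).

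At an adjusted p under 0.05 edgeR, with all 12 libraries, called 0 of these 28 in each contrast. DESeq2 called 1 between the genotypes after saline (1.08% of all genes), and edgeR without A17fl/fl + NS replicate 2 called 3 there (4.09%). At an unadjusted p under 0.05 in the fit of all 12 libraries, the 28 genes counted 5 for DOX in A17fl/fl (10.7% of all genes), 3 for DOX in A17α-MHCKO (6.42%), 9 between the genotypes after saline (10.1%), 0 after DOX (2.7%) and 4 in the interaction (5.99%). At the study's limits 3 were called for DOX in A17fl/fl (Loxl3, Adamtsl2 and Mmp12; 2.82% of all genes), 3 between the genotypes after saline (Ltbp2, Adamtsl2 and Mmp12; 2.99%), 2 in the interaction (Mfap2 and Adamtsl2; 2.13%) and 0 for DOX in A17α-MHCKO (0.658%) and between the genotypes after DOX (0.205%). When A17fl/fl + NS replicate 1 was left out, none of the first 3 was called and Efemp1 was, for DOX in A17fl/fl (1.24%). Between the genotypes after saline Mfap2, Efemp1 and Adamtsl2 were then called (1.55%), and in the interaction Mfap2 and Adamtsl2 (1.71%). Loxl3 and Ltbp2 are named here after their values were seen.

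The list has 6 subgroups. For DOX in A17α-MHCKO hearts, log2 fold changes were positive for 0 of 7 microfibril genes (Fbn2, Mfap2, Mfap3 and the latent TGF-β binding proteins Ltbp1 to Ltbp4; median -0.37), of which 1, Mfap2, had an unadjusted p under 0.05. They were positive for 2 of 7 fibulin and EMILIN genes, 0 of 2 lysyl oxidase paralogs, 1 of 3 genes of oxidase processing and copper supply, 1 of 4 ADAMTS-like genes and 2 of 5 elastin-degrading enzymes, beside 50.5% of all genes. In A17fl/fl hearts the microfibril genes were positive in 5 of 7 cases with all libraries (median 0.17) and in 3 of 7 without the library that stood apart (median -0.026). Mfap2 (MAGP-1), a close relative of Mfap5, was at 6.91, 8.72 and 11.9 CPM in A17α-MHCKO + NS hearts. A17α-MHCKO + DOX hearts had 6.42, 5.00 and 6.07 CPM. Those ranges did not overlap, as for 16.9% of all tested genes, and the gap between 6.42 and 6.91 CPM was narrow. The log2 fold change of Mfap2 was -0.65 (SE 0.28). Its interaction was -1.07 (SE 0.40), or -1.33 (SE 0.36) without the library that stood apart. Ltbp3 was at 0.03 for DOX in A17fl/fl hearts (-0.05 without that library) and at -0.36 in A17α-MHCKO and -0.31 between the genotypes after DOX.

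Adamtsl2, a microfibril-binding protein without protease activity, was at 40.2, 35.8 and 56.3 CPM in A17α-MHCKO + NS hearts. A17fl/fl + NS hearts had 9.58, 27.0 and 15.7 CPM, below all of these. The log2 fold change was 1.34 (SE 0.37) between the genotypes after saline, 1.04 (SE 0.37) for DOX in A17fl/fl and -1.72 (SE 0.52) for the interaction. In 11 libraries, without A17fl/fl + NS replicate 1, these were 1.04, 0.74 and -1.43. Adamts10, a protease that binds fibrillin-1, was at 0.62 (SE 0.22) and -0.85 (SE 0.31) in the first and last of these comparisons, and at 0.40 and -0.63 in 11 libraries.

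Among the other named genes, Mmp12, the macrophage elastase, repeated the picture of Lox, with 69.6 CPM in A17fl/fl + NS replicate 1 and 0.756 to 3.33 CPM elsewhere. Its log2 fold changes of -3.37 for DOX in A17fl/fl and -3.87 between the genotypes after saline were 0.42 and -0.08 without that mouse. Mmp2, a gelatinase that also cleaves elastin, was at 121, 191 and 120 CPM in A17α-MHCKO + NS and 67.1, 102 and 90.8 CPM in A17α-MHCKO + DOX hearts, a log2 fold change of -0.73 (SE 0.23). Atp7a, which loads copper onto lysyl oxidases, was at -0.55 (SE 0.23) in the same comparison. Efemp1 (fibulin-3) was at -0.94 (SE 0.38) for DOX in A17fl/fl hearts, and at -1.19 (SE 0.36) in 11 libraries.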

How the data were processed

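RNA sequencing of 12 mouse hearts, 1 library per mouse, was analysed. The authors counted fragments per gene with StringTie, scaled by TMM and tested with edgeR. The submitters' processing notes name CASAVA 1.8, HISAT2, SAMtools 1.3.1, edgeR and GRCm39. The deposited table holds, for each mouse, unnormalized counts and FPKM, which the authors divided by gene length and library total. Counts were used for fits and FPKM for levels per length. Of the identifiers, 53274 are in GENCODE M21 (GRCm38), used for coding sequences.

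Genes were kept by filterByExpr (16101 in number), and their counts, with TMM factors, were fitted in edgeR 4.0.16 (R 4.3.3) by glmQLFit with a mean for each of 4 groups. For 5 contrasts glmQLFTest gave p-values, adjusted by the Benjamini-Hochberg method, and scripts were checked on simulated counts. Standard errors are the absolute log2 fold change over the square root of F, an approximation. Correlations used log2 CPM with a prior count of 2. Total counts ran from 15950717 to 21725076, and p-values weigh a difference between groups against the spread between mice.

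The members and the lists of related and marker genes were chosen with earlier results of these data known. All 10 members are named. From the related list, up to 3 genes per contrast with the smallest unadjusted p are named, with the 6 genes most like the members. The alternatives were RLE and upper-quartile scaling, DESeq2 1.42.0, voom with library weights (limma 3.58.1), other filters, a fit on the groups of a contrast alone, a replicate block and each library left out.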

Additional observations from a re-analysis of the deposited data

How the results depend on the processing

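Groups of 3 mice and 1 library that stood apart limit these values. Of the summary counts and medians, 256 values under the alternatives stayed near the main ones and 44 moved, and the causes were not tested. A median was near when it shifted by less than 0.49, the SD within groups of the mean member log2 CPM. That exceeds every main median of the members in size, so it is lenient. With voom the median for DOX in A17fl/fl went from -0.13 to 0.25 and still counted as near. A count was near when equal to the main one or close in ratio, so any that stayed at 0 were near. Of the other values, mainly single log2 values of members, 790 stayed near the main ones, 31 moved by more than the spread between mice, and 4, all of Lox at a contrast where it was called, turned sign. Counting members not called as well, 59 of 750 values turned sign, and 16 of the 30 values without A17fl/fl + NS replicate 1 did, 8 of 10 of them for DOX in A17fl/fl. For a single gene, the spread used as the limit was its own SD within groups over all 12 libraries. A17fl/fl + NS replicate 1 widened that limit for genes it set apart, such as Lox, so staying near is a lenient label for them. DESeq2 gave 0 members at the study's limits for DOX in A17fl/fl, where it called 405 of all 16101 genes. There it gave Lox no p-value and a log2 fold change of -4.01. At an adjusted p under 0.05 it gave 1 member for DOX in A17α-MHCKO (0.255% of all genes). It also gave 1 between the genotypes after saline (1.08%) and 1 in the interaction (0.13%). At the study's limits, voom with library weights gave 0 members and 0 related genes for DOX in A17fl/fl (184 of all genes). It gave 1 member for DOX in A17α-MHCKO (151), 2 between the genotypes after saline (258) and 1 in the interaction (276). At an adjusted p under 0.05 it gave 1 for DOX in A17α-MHCKO (0.0932% of all genes). The interaction of Lox was -0.043 in that fit. The fit with a replicate block gave 0 members and 1 related gene for DOX in A17fl/fl (281 of all genes). The groups of the contrast alone gave 1 member and 1 related gene there (235 of 15457 genes). The main fit called 454 of all genes in that contrast. Same-numbered mice did not deviate together (r from -0.10 to 0.22 over 18 pairs), so the numbers were not taken as pairs.

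Leaving out each library in turn left 16406 to 16527 genes tested. At the study's limits it gave 0 to 3 members for DOX in A17fl/fl, where 204 to 987 of all tested genes were called. It gave 1 to 2 for DOX in A17α-MHCKO (71 to 124 of all genes). Between the genotypes after saline it gave 1 to 5 (254 to 1066), and in the interaction 1 to 3 (226 to 963). At an adjusted p under 0.05 it gave 0 to 1 members for DOX in A17fl/fl (0 to 391 of all genes). It gave 0 to 2 between the genotypes after saline (1 to 672) and 0 to 1 in the interaction (0 to 81). The upper ends, of members and of all genes, came without A17fl/fl + NS replicate 2. At the study's limits, related genes numbered 1 to 7 for DOX in A17fl/fl and 2 to 10 between the genotypes after saline. In the interaction they numbered 1 to 7. These counts stand beside the ranges of all genes at the same limits, and nothing is read from them. The median of the members ran from -0.46 to 0.39 for DOX in A17fl/fl, from -0.41 to 0.58 between the genotypes after saline and from -0.63 to 0.21 in the interaction. The values of Lox ran from -4.57 to 0.071, from -4.19 to 0.45 and from -0.49 to 4.15 in these contrasts, with the signs turned without A17fl/fl + NS replicate 1. For Eln, all alternatives together gave -2.27 to -1.84 for DOX in A17α-MHCKO, 1.40 to 1.96 between the genotypes after saline and -2.73 to -2.17 in the interaction.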
